A study of Mus musculus with 22 samples.

Results

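Noncoding transcripts that the array names by genomic coordinate were examined in the epididymal fat of mice after 6 hours of low oxygen. Their probes carry a name such as chr2:60531602-60543635_R, an interval of the mouse genome (build mm9) followed by the strand, and are described in the array files as long intergenic noncoding RNA. The array holds 4610 such regions, and 1534 of them were taken as members because at least 1 of their probes was well above background in the sample channel on 10 or more of the 22 arrays. They make up 1534 of the 16588 features (names on the array) that passed the same filter. A further 123 regions had a best probe on 9 arrays and fell just outside, 120 members lay just inside at 10 arrays, and 250 regions were never above background.

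All animals were male C57BL/6JOlaHsd mice, an inbred strain with no engineered allele. They arrived at 10 weeks of age, ate a purified diet with 10% of its energy as fat for 3 weeks and then one with 40% for 6 weeks, and were fasted before exposure. The 12 normoxia mice stayed at 20.9% oxygen and the 10 hypoxia mice were held at 12% oxygen for 6 hours, both inside a calorimetry system. The treatment text mentions low-fat feeding as well but assigns no mouse to it, and diet was no term of the model. Each array compared Cy5-labelled RNA of 1 mouse with a Cy3-labelled pool made from all of the mice. Dyes were not swapped, so each value is the log2 ratio of a mouse to that pool. The series text calls the samples of a group biological replicates. All 8 adipocyte markers looked for, among them Adipoq, Plin1 and Lep, passed the filter.

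Long intergenic noncoding RNAs are transcripts without a long reading frame that lie between protein-coding genes. Many are spliced and polyadenylated, most are expressed at low levels, and many are restricted to a few cell types. A few are abundant nuclear RNAs, such as Malat1 and Neat1, which take part in the organisation of nuclear speckles and paraspeckles, while others, such as Meg3, come from imprinted domains. In bulk tissue, fewer cells of a type and less RNA per cell cannot be told apart.

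The probes behind the results are 60-base sequences, given 5′ to 3′ with CpG dinucleotides in capitals. The first set holds the 5 regions with the smallest p among those lower in hypoxia, a sixth lower region near a Malat1 probe, and the 3 regions with the smallest p among those higher in hypoxia.
chr2:60531602-60543635_R: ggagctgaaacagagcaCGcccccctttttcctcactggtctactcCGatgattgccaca
chr17:39979941-39981793_R: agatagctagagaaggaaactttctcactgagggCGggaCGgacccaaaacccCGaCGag
chr6:122741562-122743423_R: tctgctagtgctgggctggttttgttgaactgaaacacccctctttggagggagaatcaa
chr13:73472571-73483846_R: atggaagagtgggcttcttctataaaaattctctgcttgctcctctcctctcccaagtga
chr13:24615451-24615973_F: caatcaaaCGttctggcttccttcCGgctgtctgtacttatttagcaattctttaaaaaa
chr19:5798135-5800557_R: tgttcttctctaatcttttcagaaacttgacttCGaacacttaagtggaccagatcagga
chr3:86827945-86886695_R: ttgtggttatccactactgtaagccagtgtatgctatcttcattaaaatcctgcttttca
chr17:26911032-26912366_F: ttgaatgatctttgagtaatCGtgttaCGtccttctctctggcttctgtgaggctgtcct
chr7:67111261-67120645_R: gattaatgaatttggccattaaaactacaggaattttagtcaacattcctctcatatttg
The second set holds 4 of the 5 brightest regions, of which 3 have a GC content of 78.3% or 83.3% and 4 to 10 CpG dinucleotides.
chr19:5801802-5802597_R: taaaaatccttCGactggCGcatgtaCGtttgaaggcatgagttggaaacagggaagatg
chr14:78924115-78938125_F: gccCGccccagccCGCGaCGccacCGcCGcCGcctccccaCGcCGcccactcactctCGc
chr12:73838608-73862621_R: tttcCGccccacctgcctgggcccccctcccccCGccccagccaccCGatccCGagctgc
chr6:83368261-83407280_F: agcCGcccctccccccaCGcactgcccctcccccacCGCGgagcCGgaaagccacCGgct
The third set holds 3 of the 5 regions whose ratio differed most between normoxia mice.
chr2:108456668-108532418_R: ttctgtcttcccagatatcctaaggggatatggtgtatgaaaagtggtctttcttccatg
chr8:93337794-93348869_R: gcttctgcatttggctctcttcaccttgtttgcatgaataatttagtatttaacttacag
chr17:15100982-15115630_R: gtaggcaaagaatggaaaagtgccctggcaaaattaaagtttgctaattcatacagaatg
The fourth set holds 2 intervals with probes for both strands, here with capitals for the bases that are the reverse complement of the other probe, which are 54 bases on chromosome 11 and 30 bases on chromosome 14.
chr11:19778600-19815950_F: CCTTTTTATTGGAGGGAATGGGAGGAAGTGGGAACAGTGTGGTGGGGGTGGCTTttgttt
chr11:19778600-19815950_R: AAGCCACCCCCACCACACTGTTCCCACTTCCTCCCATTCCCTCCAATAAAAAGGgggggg
chr14:115423660-115463160_F: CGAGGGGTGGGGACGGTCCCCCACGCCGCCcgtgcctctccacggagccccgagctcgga
chr14:115423660-115463160_R: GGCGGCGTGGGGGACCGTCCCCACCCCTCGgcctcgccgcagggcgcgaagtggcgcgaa

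Most regions lay close to the detection limit. Of the 16194 region probes, 16.3% were well above background on 10 or more arrays and 2.33% on all 22, against 47.6% and 17.9% of the 39487 other probes. By name, 33.3% of regions and 49.9% of other features passed the filter. Among the members, 258 (16.8%) were well above background on all 22 arrays, against 41.0% of the other tested features. Their median log2 intensity was 7.41 (quartiles 7.02 and 8.34), against 8.80 for the other features (7.69 and 10.3), and 57.0% of members fell in the dimmest of 4 equal bins of all tested features. No member was undetected in every mouse of a group. Detection itself differed between arrays: in Cy5, 15.6% to 76.8% of an array's spots were well above background, and on the 4 arrays of slide 1 (2 normoxia and 2 hypoxia mice) it was 15.6% to 18.9%.

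Both strands and all chromosomes examined were represented. The members comprised 758 of 2321 forward-strand regions (32.7%) and 776 of 2289 reverse-strand regions (33.9%). The share that passed ran from 22.5% on the X chromosome (40 of 178) to 46.5% on chromosome 19 (46 of 99). The genomic interval of a member was 104 to 533972 bases long, and 936 members had a single tested probe. The probe of a member had a median GC content of 45.0%, against 41.7% for other tested features, and 52.5% of member probes held a CpG, against 50.8%. Sequence matches placed the probes of 29 members in a RefSeq promoter window (GRCm38.p6, from 250 bases before to 50 after a start). Among them were a forward-strand probe antisense to the promoter of Snhg17, a small nucleolar RNA host gene, and one antisense to that of Ipw, a noncoding RNA of the imprinted Prader-Willi domain. One interval, chr7:134620707-134626739, had probes in both orientations at the promoter of Fbrs. No member probe matched a RefSeq miRNA hairpin.

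Hypoxia was compared with normoxia to ask which of these transcripts differ in fat after brief low oxygen, and no region passed the test. The limma fit with Benjamini-Hochberg adjustment over all 16588 features called 0 regions at an adjusted p of 0.05, and 0% of all features passed (0 of 16588). The smallest adjusted p was 0.171 among the regions and 0.0692 among all features. Differences in log2 ratio (hypoxia minus normoxia) ran from -0.40 to 0.37 among regions and from -0.78 to 1.13 among the other features. No region had groups that did not overlap. The same share over all features is not given here, so this is not read as a trait of the regions.

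At an unadjusted p under 0.05 in the same limma fit, 19 regions were higher in hypoxia (1.24%) and 64 were lower (4.17%). Over all tested features the same rule gave 2.57% higher and 2.72% lower. Lower regions thus made up 77.1% of the regions under that p, against 48.8% among the other features (407 higher and 388 lower). The split depended on the scaling. After median centring, which moved the median difference of all features to -0.21, 95.5% of such regions and 98.0% of such other features were lower. With Cy5 read alone, 52.3% of the regions (21 higher, 23 lower) and 38.4% of the other features were lower. Counting each region once, 951 of 1534 (62.0%) had a difference below 0, against 48.3% of the other features, and the median difference was -0.03 against 0.00. This order turned under other scalings: the median of the regions less that of the other features was -0.034 here, 0.037 after median centring and 0.020 in the deposited value table. The median was negative on each of the 20 chromosomes, from -0.01 on chromosome 3 to -0.05 on chromosome 18, and on both strands (-0.03 on each).

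The share of lower regions was larger among bright probes, and that of lower other features was also larger in the 2 brighter bins. In the dimmest of the 4 intensity bins, 1.71% of the 875 regions were lower and 0.686% higher, against 1.25% and 1.38% of the other features. In the second bin, 5.92% of 355 regions were lower and 0.563% higher, against 1.85% and 2.80%. In the next, 8.74% of 183 regions were lower and 3.83% higher, against 3.53% and 3.46%. In the brightest bin, 9.92% of the 121 regions were lower (12 regions) and 3.31% higher (4 regions), against 3.40% and 2.96%. The share of lower regions was thus near that of other features in the dimmest bin, which holds most members.

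**Figure D1:**
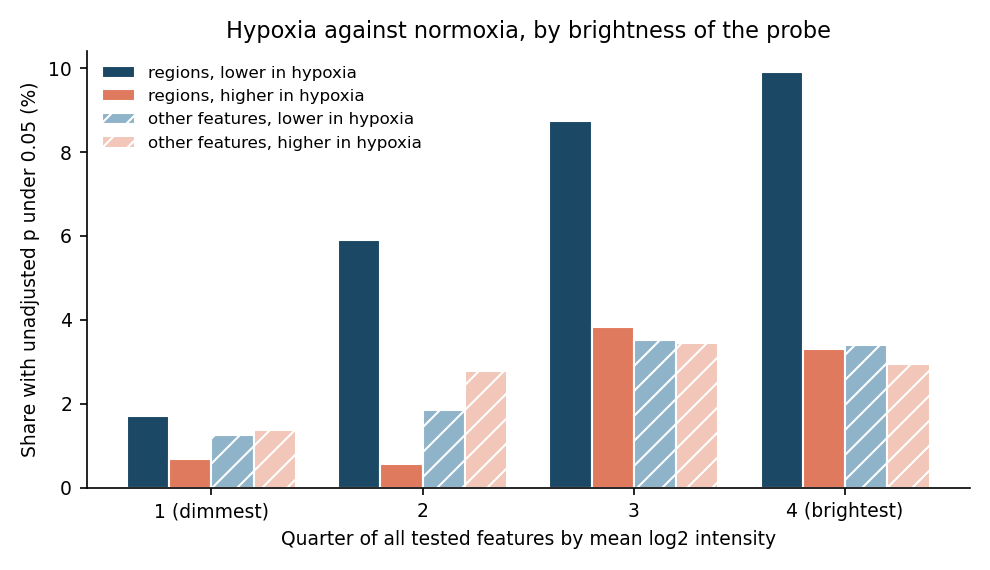
Share of regions and of other features with an unadjusted limma p under 0.05 (y axis, percent), lower or higher in hypoxia, by mean log2 intensity of all tested features in 4 equal bins (x axis). The dark bars of lower regions run from 1.71% in the dimmest bin to 9.92% in the brightest, above the hatched bars of lower other features in each bin.

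The shift was small within single mice and uneven between slides. The median log2 ratio of the members, less that of the other features on the same array, was 0.066 at lowest, 0.110 at the median and 0.158 at highest in the normoxia mice. In the hypoxia mice it was 0.031, 0.083 and 0.123, and 8 of 10 hypoxia mice lay below the normoxia mean of 0.108. The groups overlapped. Within slides that carry 2 mice of each group, the median difference of the regions less that of the other features was -0.089 on slide 3 and -0.073 on slide 4. It was -0.015 on slide 1, 0.002 on slide 6 and 0.011 on slide 5. The share of regions below 0 was 70.2% on slide 3 and 49.9% to 54.3% on the remaining 4, so slides 3 and 4 held most of the gap between regions and other features. With slide as a fixed block the counts at an unadjusted p under 0.05 were 14 higher and 73 lower.

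**Figure D2:**
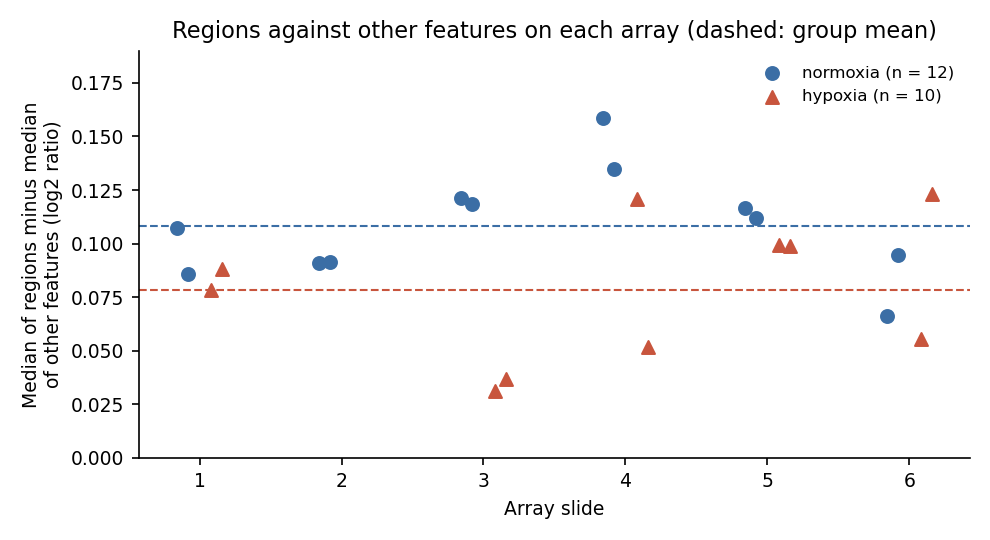
Median log2 ratio of the regions minus that of the other features (y axis) on each of the 22 arrays, by array slide (x axis), with circles for normoxia, triangles for hypoxia and dashed lines for the group means (0.108 and 0.078). The lowest triangles are the 2 hypoxia arrays of slide 3, at 0.031 and 0.037.

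Among regions lower in hypoxia, the smallest p belonged to chr2:60531602-60543635_R, with its probe at chr2:60531683-60531742 on mm9. Its log2 ratio was 0.20 at lowest, 0.40 at the median and 0.76 at highest in normoxia, and -0.19, -0.03 and 0.38 in hypoxia. All 10 hypoxia mice lay below the normoxia mean and 7 lay below the lowest normoxia mouse, while the highest hypoxia mice overlapped the normoxia range. The mean was 0.42 ± 0.17 (SD, n = 12) in normoxia and 0.03 ± 0.21 (SD, n = 10) in hypoxia, a difference of -0.40 ± 0.09 (SE) or 1.32-fold, with p = 8.24e-05 and a limma adjusted p of 0.171. The difference was negative within all 5 slides that hold both groups, from -0.59 to -0.29, and -0.35 with Cy5 alone. Only 1 of the region's 2 probes passed the filter. It was well above background on all 22 arrays and the other on 4, so the difference rests on 1 probe that the other did not match in detection. The nearest named gene with a tested probe was Rbms1, an RNA-binding protein gene on the same strand 47178 bases away, with a difference of 0.18 ± 0.13 (SE) and a correlation of 0.14 with the region across mice.

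The next lower regions showed smaller differences with more overlap. For chr17:39979941-39981793_R the log2 ratio was -0.06, 0.19 and 0.56 in normoxia (lowest, median, highest) and -0.29, -0.14 and 0.22 in hypoxia, a difference of -0.28 ± 0.08 (SE, limma adjusted p = 0.492). The other tested probe of that region had a difference of -0.15 but did not follow the first across mice (r = -0.26 within groups). For chr6:122741562-122743423_R the ratios were -0.11, 0.35 and 0.53 against -0.55, -0.11 and 0.26, a difference of -0.36 ± 0.10 (SE, limma adjusted p = 0.50). All 10 hypoxia mice lay below the normoxia mean there. Its other 2 tested probes differed by only -0.09 and 0.07. The region chr13:73472571-73483846_R, 2997 bases from a probe of Mrpl36 (a mitochondrial ribosomal protein gene) on the opposite strand, had ratios of -0.12, 0.21 and 0.35 against -0.81, -0.20 and 0.47. Its difference was -0.35 ± 0.11 (SE, limma adjusted p = 0.605), and Mrpl36 itself differed by -0.04 ± 0.09 (SE). Mrpl36 was the region's nearest named gene with a tested probe, and Eprn has a probe inside the interval. The probe used for the region was well above background on 22 arrays, and the region's other probes on only 2 or 3. The remaining regions of the 10 with the smallest p in this direction had differences from -0.37 to -0.20 and limma adjusted p of 0.731 to 0.813. Among them were chr13:83867711-83878140_R (-0.28 ± 0.09, SE), 92686 bases from Mef2c, a transcription factor gene of muscle and other lineages, and chr10:39619134-39627737_F (-0.29 ± 0.10, SE), 24443 bases from Rev3l, the gene of a DNA polymerase catalytic subunit.

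One lower region had 3 probes of one direction next to a Hox gene. The region chr11:96175764-96176029_F spans 266 bases, 6856 bases from a probe of Hoxb4, a homeobox transcription factor gene, on the same strand. Its log2 ratio was -0.29, -0.08 and 0.62 in normoxia (lowest, median, highest) and -0.72, -0.40 and 0.19 in hypoxia, and 6 hypoxia mice lay below the lowest normoxia mouse. The difference was -0.30 ± 0.11 (SE, limma adjusted p = 0.813). Its other 2 tested probes had differences of -0.16 and -0.14 and followed the first at r = 0.65 and 0.68 within groups. Hoxb4 itself differed by -0.23 ± 0.11 (SE, unadjusted p = 0.045 in the limma fit) and correlated with the region at 0.33.

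The stretch of chromosome 19 that holds probes of Malat1 carried 7 regions, all tested and all with a difference below 0. The interval chr19:5771425-5848475, with a region on each strand, spans the others, so the 7 are not separate loci. The region chr19:5798135-5800557_R lay 2363 bases from the Malat1 probe on the same strand. Its log2 ratio was -0.33, 0.31 and 0.73 in normoxia (lowest, median, highest) and -0.60, -0.12 and 0.50 in hypoxia, so the groups overlapped widely. The difference was -0.37 ± 0.13 (SE, limma adjusted p = 0.751), and it was negative in all 5 slides with both groups (-0.95 to -0.06). All 3 of its probes were lower, by -0.37, -0.37 and -0.25, and the other 2 followed the first at r = 0.69 and 0.44. The probe named Malat1 differed by 0.01 ± 0.11 (SE) and did not vary with the region (r = -0.01). The 6 other regions of the stretch had differences from -0.21 to -0.05, of which chr19:5771425-5848475_R (-0.21 ± 0.10, SE) had an unadjusted p of 0.037 and the rest were above 0.05. No annotation of mm9 was used, so exons and UTRs under these probes are not given. Whether the regions on the strand of Malat1 are part of its transcript or separate from it was not tested.

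Regions higher in hypoxia were fewer. The region chr3:86827945-86886695_R spans 58751 bases and holds a probe of Kirrel, a cell adhesion molecule of the nephrin family, on the same strand. Its log2 ratio was -0.89, -0.14 and 0.14 in normoxia (lowest, median, highest) and -0.25, 0.17 and 0.54 in hypoxia, and 6 hypoxia mice lay above the highest normoxia mouse. The difference was 0.33 ± 0.11 (SE, limma adjusted p = 0.744). Its second tested probe was higher by 0.25 and followed the first at r = 0.48, while Kirrel differed by 0.07 ± 0.09 (SE) and correlated with the region at 0.41. For chr17:26911032-26912366_F, 16674 bases from Bnip1 (a vesicle transport SNARE gene), ratios of -0.72, -0.09 and 0.33 in normoxia stood against -0.22, 0.05 and 0.44 in hypoxia. Its difference was 0.29 ± 0.11 (SE, limma adjusted p = 0.834) and its second probe was higher by 0.25, with r = 0.52. The region chr7:67111261-67120645_R lies 11685 bases from Snrpn, an imprinted gene of the Prader-Willi domain, on the same strand. Its ratios were -0.53, 0.01 and 0.11 against -0.10, 0.21 and 0.44, with 6 hypoxia mice above the highest normoxia mouse and a difference of 0.20 ± 0.08 (SE, limma adjusted p = 0.868). Snrpn differed by 0.10 ± 0.11 (SE) and correlated with it at 0.46.

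A single-probe region near histone genes had the largest difference upward. The region chr13:21856097-21859200_R, 10734 bases from a probe of the histone gene H2ac15, had ratios of -0.35, 0.14 and 0.87 in normoxia and -0.25, 0.61 and 1.13 in hypoxia (lowest, median, highest). Its difference was 0.37 ± 0.16 (SE, limma adjusted p = 0.875), and within slides it ran from -0.41 to 0.76. The other 6 of the 10 higher regions with the smallest p had differences from 0.18 to 0.28 and limma adjusted p of 0.868 to 0.902. After median centring, 5 of these 10 higher regions had a difference below 0, among them chr17:26911032-26912366_F (-0.02).

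**Figure D3:**
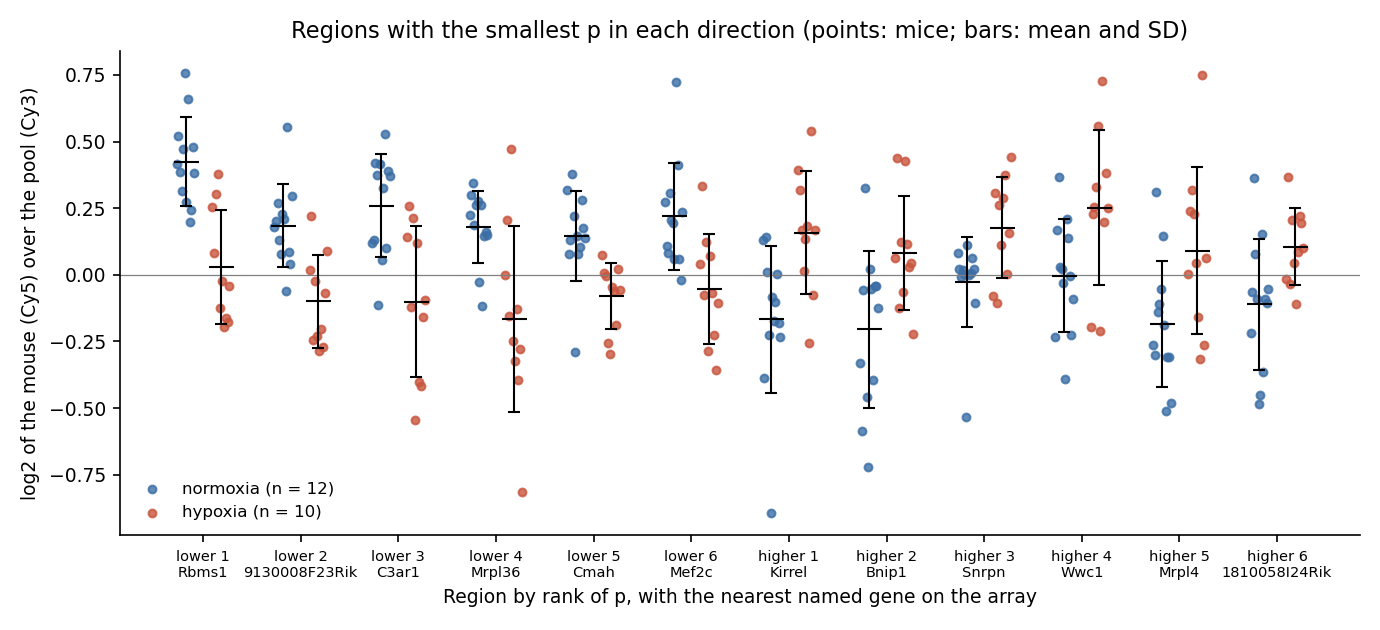
Log2 ratio of each mouse to the pool (y axis) for the 6 regions with the smallest limma p in each direction (x axis, labelled by the nearest named gene with a tested probe), with points for mice and bars for the mean and SD of 12 normoxia and 10 hypoxia mice. The region nearest Rbms1 has normoxia values from 0.20 to 0.76 and hypoxia values from -0.19 to 0.38, and the 2 groups overlap in every region shown.

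Other probes of the same region often differed in sign. Of the 64 regions lower at an unadjusted p under 0.05, 28 had more than 1 tested probe and in 19 of these all probes were lower. Of the 19 higher regions, 11 had more than 1, and in 8 all were higher. Over all 598 members with 2 or more tested probes, 290 had probe differences of both signs. The median correlation between probes of a region across mice, within groups, was 0.20 (quartiles -0.02 and 0.43). In the brightest intensity bin the median was 0.19 over 76 regions.

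Correlations with neighbouring named genes were low except where probes overlapped. The nearest tested probe of a named gene lay at a median of 24.4 kb from the region. Across mice, within groups, the median correlation with a same-strand probe was 0.19 where it lay inside the interval (122 regions), 0.13 up to 10 kb away (211 regions), and 0.00 from 10 to 50 kb (248 regions). For probes of the opposite strand the medians were 0.07, 0.03 and -0.01. In 32 of the 122 regions the 2 probes overlapped on the genome, with a median correlation of 0.45, and in the 90 without overlap it was 0.09. At 10 of the 32 both probes lay at the same position, and there the correlation ranged from 0.03 to 0.74 with a median of 0.48. These correlations share arrays and dye, and are given as descriptions.

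The pairs that followed each other most included identical probes and single mice. The region chr17:33425193-33449090_F correlated with Zfp955b, a zinc finger gene, at 0.74 over 22 arrays, and all 60 bases of the 2 probes lay at the same position. The region chr19:46422690-46423478_R correlated at 0.80 with 2310034G01Rik, a noncoding RNA gene inside its interval, and leaving out any single array gave 0.76 to 0.91. The region chr8:27131895-27132834_R correlated at 0.79 with Hook3, a microtubule adaptor gene, and at 0.73 to 0.82 without any single array. Hook3 has another probe inside the interval and its tested probe 6547 bases away on the same strand. The other 2 tested probes of this region had r of only -0.26 and 0.22 with the probe used, so the correlation belongs to 1 probe. For chr15:83181291-83197750_R and the noncoding gene 1700001L05Rik the correlation of 0.75 fell to 0.13 without normoxia mouse 1, which had a ratio of 1.75 against a normoxia median of -0.01. The region at Zfp955b had a hypoxia difference of -0.16 ± 0.08 (SE, limma adjusted p = 0.931), and those of the next 3 lay between -0.04 and 0.02.

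Probes of opposite strands of an interval rarely moved together. Of 1067 intervals with probes for both strands, 211 had both tested, 199 only the forward and 237 only the reverse. The median correlation within the 211 pairs was 0.02 (quartiles -0.15 and 0.28), 10 pairs exceeded 0.5, and 116 pairs had differences of the same sign. Where the 2 probes overlapped (36 pairs) the median was 0.07 and the range -0.58 to 0.78. The pair on chromosome 11 with 54 complementary bases, printed above, had a correlation of 0.78, and 0.79 without slide 1. The forward ratios there were -0.11, 0.46 and 1.36 in normoxia (lowest, median, highest) and -0.08, 0.41 and 1.68 in hypoxia. The reverse ratios were -0.43, -0.06 and 1.24 against -0.50, -0.06 and 0.97. The differences were 0.01 ± 0.18 and -0.05 ± 0.16 (SE), within the spread between mice.

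A second pair overlapped the host gene of the miR-17 cluster, a group of growth-related miRNAs. At chr14:115423660-115463160 the 2 probes share 30 complementary bases, and a probe of Mir17hg lies inside the interval on the forward strand. The 2 strands correlated at 0.71, and at 0.81 without slide 1. The forward ratio was -0.04, 0.56 and 1.01 in normoxia against 0.10, 0.42 and 0.68 in hypoxia (difference -0.09 ± 0.11, SE). The reverse ratio was -0.40, 0.01 and 0.33 against -0.64, -0.16 and 0.00 (difference -0.17 ± 0.09, SE, limma adjusted p = 0.952). The Mir17hg probe did not follow the forward region (r = 0.05), and the other 2 tested reverse probes had r of -0.51 and -0.17 with the first. The pairs at chr12:73838608-73862621 and chr11:22681800-22707775 had correlations of 0.83 and 0.71 over all arrays, and 0.41 and 0.07 without slide 1.

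The 5 brightest regions had their highest ratios on slide 1, whose arrays had few spots above background. For chr14:78924115-78938125_F the 4 arrays of slide 1 lay between 0.93 and 1.31 and the other 18 between -0.14 and 0.74. For chr12:73838608-73862621_R they lay between 0.80 and 1.49 against -0.56 to 0.46, and for chr6:83368261-83407280_F between 0.79 and 1.42 against -0.47 to 0.47. For chr7:108209996-108216032_R they lay between 0.48 and 1.15 against -0.26 to 0.39. None of the 18 other arrays reached the lowest slide 1 value in these 4 regions. The other probes of chr14:78924115-78938125_F were well above background on at most 2 arrays, so its brightness rests on a single probe. For chr19:5801802-5802597_R, 6030 bases from the Malat1 probe, slide 1 ran from 0.79 to 2.08 and the others from -0.26 to 0.94, with 2 of 18 above the lowest slide 1 value. Over all members 19 (1.24%) had all slide 1 arrays above all others, against 1.71% of other features. The hypoxia difference of these 5 regions was between -0.21 and 0.09, with limma adjusted p of 0.985 to 0.998, and each slide 1 set holds 2 mice of each group. The part of the slide in the level of these probes was not tested further.

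**Figure D4:**
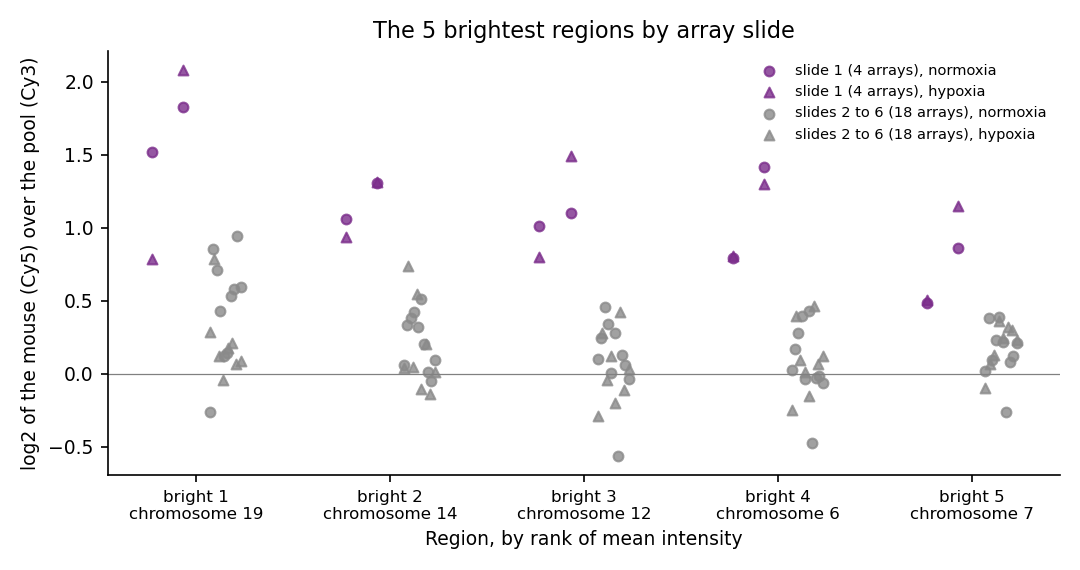
Log2 ratio to the pool (y axis) of the 5 brightest regions (x axis, by chromosome), with the 4 arrays of slide 1 in purple and the other 18 in grey, circles for normoxia and triangles for hypoxia. In 4 of the 5 regions every purple point lies above every grey point.

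Of the 5 regions with the largest SD between normoxia mice, 3 varied widely in both groups and 2 were set apart by a single normoxia mouse. The first 3, chr18:36449530-36456800_R, chr2:108456668-108532418_R and chr8:93337794-93348869_R, had nearly the same pattern across the 22 mice, with correlations of 0.98 to 0.99 between them. The chromosome 8 region had log2 ratios of -1.81, -0.83 and 1.51 in normoxia (lowest, median, highest) and -1.86, -0.71 and 1.28 in hypoxia. The chromosome 2 region had ratios of -2.06, -0.80 and 2.16 against -1.81, -0.58 and 1.20, and the chromosome 18 region -2.20, -0.96 and 2.11 against -2.06, -0.67 and 1.19. Normoxia mice 2 and 5 and hypoxia mice 9 and 10 were the 4 highest for each region. The differences between groups were -0.01 ± 0.42, 0.09 ± 0.48 and 0.10 ± 0.51 (SE), far within the spread. The other 2 probes of the chromosome 8 region followed the first at r = 0.97 and 0.99, while those of the chromosome 18 region had r of -0.07 and 0.17 with theirs.

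Many features shared that pattern. Of the 16587 other features, 375 (2.26%) correlated with the chromosome 8 region above 0.8 within groups, 13 of them regions. The 10 named features with the highest correlation included Dnahc6 (0.98), a ciliary dynein heavy chain, Cldn3 (0.98), a tight junction protein of epithelia, and Lrp2 (0.98), an endocytic receptor of absorptive epithelia. Foxj1, the transcription factor of motile cilia, and Prom1, a surface protein of epithelial progenitors, also correlated at 0.98, and were picked after their values were seen. Foxj1 ratios ran from -2.33 to 1.55 in normoxia and from -2.21 to 1.04 in hypoxia. Of the 7 epididymis markers on the marker list only 1 was measured, and its log2 ratio less its mean over mice ran from -1.04 to 4.55 in normoxia and from -1.08 to 0.88 in hypoxia. The part of other tissue in the sample was not tested.

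The other 2 variable regions were highest in a single mouse that also had the highest ratios for the sperm transcripts Prm1, Prm2 and Smcp. These transcripts were not confined to that mouse, as Prm1 was well above background on 18 arrays. The region chr14:65720392-65769859_R had a ratio of 3.56 in normoxia mouse 1, with a normoxia median of 0.43 and hypoxia values of -0.01 to 0.46. The region chr17:15100982-15115630_R had 2.67 in the same mouse, with a normoxia median of -0.45 and hypoxia values of -1.13 to 0.20. Normoxia mouse 1 was also the highest for Prm1 and Prm2, the protamines that pack sperm DNA, at 2.77 for each, and for Smcp, a sperm mitochondrial protein, at 3.18. The 10 named features closest to the chromosome 17 region included Gsg1 (r = 0.97), Tcp11 (0.95), Odf2 (0.95) and Prm1 (0.93), genes known from male germ cells. The chromosome 14 region correlated less with 3 of the sperm genes, at 0.57 with Prm1, 0.58 with Prm2 and 0.49 with Smcp. The 10 named features closest to that region included Srfbp1 (r = 0.96), Kcnh4 (0.96), Tulp2 (0.94), Cabyr (0.93), Spata1 (0.92) and Ropn1l (0.92). Of 8 germ cell markers on the list, 4 were measured. The mean of their log2 ratios, each less its mean over mice, ran from -1.60 to 3.26 in normoxia and from -1.30 to 1.69 in hypoxia. Of these markers, Tnp1 varied less, with a normoxia SD of 0.54 against 1.74 for Prm1, 1.86 for Prm2 and 1.87 for Smcp. Without normoxia mouse 1 the correlation between the 2 regions fell from 0.76 to 0.09, and that of the chromosome 17 region with the chromosome 8 region rose from 0.42 to 0.85. For 0.09 and 0.85 the normoxia mean that was removed still included mouse 1, so they are not strictly correlations within groups. The differences between groups were -0.36 ± 0.27 and -0.25 ± 0.32 (SE).

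**Figure D5:**
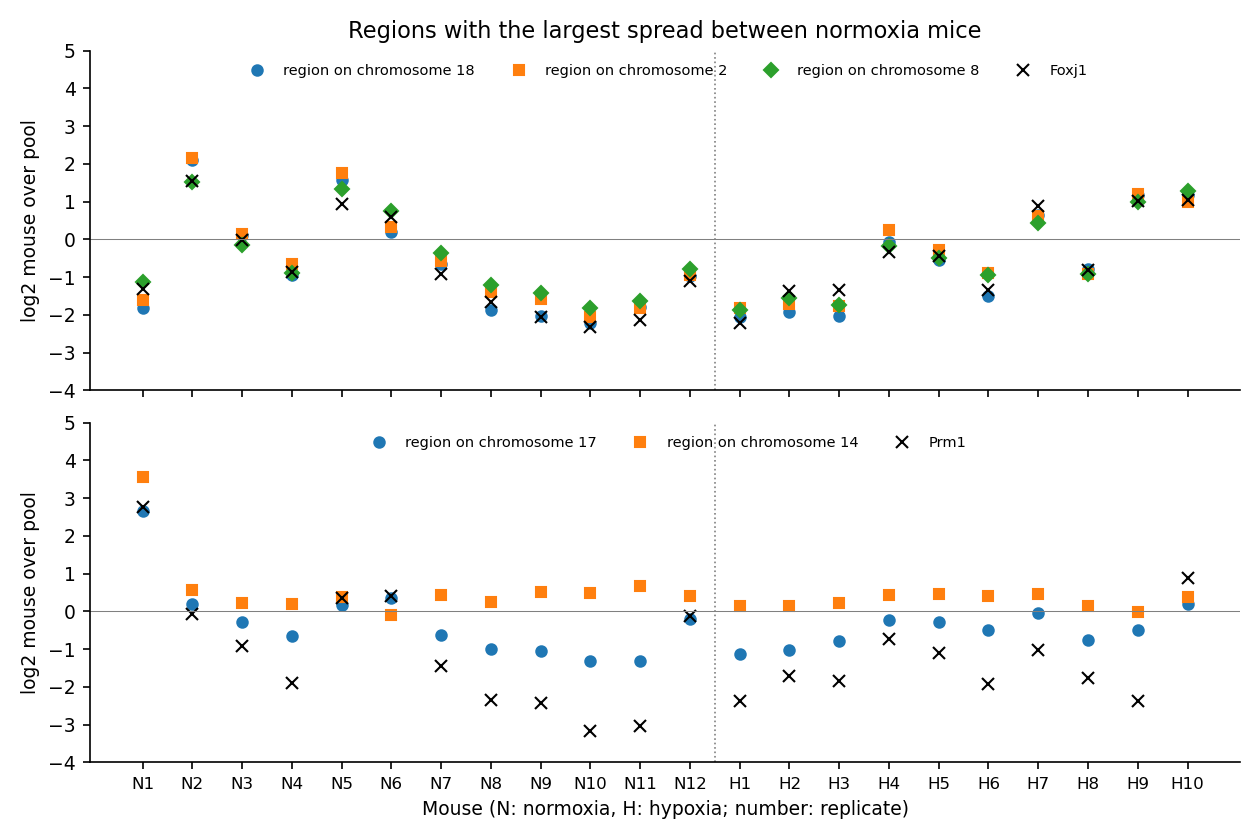
Log2 ratio to the pool (y axis) in each mouse (x axis, N for normoxia and H for hypoxia) of the 5 regions with the largest SD between normoxia mice, beside the cilium gene Foxj1 (upper) and the sperm gene Prm1 (lower). The 3 regions of the upper panel follow Foxj1 across the mice, all above 0.9 in N2, N5, H9 and H10, and the 2 regions of the lower panel reach 2.67 and 3.56 in N1.

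Over all members the median SD between normoxia mice was 0.22, against 0.24 for other features, and 0.19 against 0.21 between hypoxia mice. In the brightest intensity bin the order turned, narrowly in normoxia (0.248 for regions against 0.247) and in hypoxia (0.242 against 0.234). In the third bin it had turned in hypoxia (0.212 against 0.205) but not in normoxia (0.225 against 0.238). Values more than 1 log2 unit from a region's own median were most frequent on normoxia mouse 6, with 69 regions (4.50%) against 3.23% of other features there. On the remaining arrays they made up at most 0.978% of the regions.

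Noncoding RNA genes that the array names by symbol also had none past the adjusted test, but their signs were split about evenly. Of 68 such genes on a list, 33 were measured, 0 passed the adjusted test, 16 lay above 0 and 17 below, with a median difference of -0.01. Meg3 (-0.33 ± 0.09, SE, limma adjusted p = 0.522) and Neat1 (-0.33 ± 0.10, SE, limma adjusted p = 0.575) were lower at unadjusted p of 0.0018 and 0.0026, and no gene was higher at that level. Neat1 ratios were -0.40, -0.02 and 0.40 in normoxia (lowest, median, highest) and -0.80, -0.32 and -0.01 in hypoxia. In the same mice 17 of 20 measured targets of the hypoxia-inducible factors were above 0, with a median of 0.16 and 6 higher at an unadjusted p under 0.05. At that level, where 2.57% of all features were higher, 3 of 5 measured red blood cell genes and 3 of 4 smooth muscle genes were higher in hypoxia. So were 2 of 8 macrophage, 1 of 6 endothelium and 1 of 6 mesothelium genes, and no gene of these lists was lower. In the adipocyte, stem and progenitor, germ cell, epididymis, B cell, T cell and mast cell lists no gene was higher or lower at that level. The part of these cell types in the region differences was not tested.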

How the data were processed

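Epididymal fat of 12 normoxia and 10 hypoxia mice was hybridised to 2-colour Agilent arrays. Scanned images were quantified by the authors with Agilent Feature Extraction (version 10.7.3.1 in the submitters' processing notes). Spot intensity in both dyes, as mean signal and median local background, was taken as deposited, before any normalization. A log10 ratio of Cy5 over Cy3, which per the file headers was background-subtracted and dye-normalized, served as an alternative. So did the authors' log2 value table, with its normalization not given in the sources read here.

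In limma 3.58.1 (R 4.3.3), normexp with offset 50 corrected the background. Loess then normalized each array's ratios, giving control spots weight 0. Outlier-flagged spots were dropped and spots of a probe averaged. A probe was tested if well above background in Cy5 on 10 or more arrays with at least 2 values per group, and the brightest such probe stood for its name. The limma fit (lmFit, eBayes) had group as its only term, with Benjamini-Hochberg adjustment of p over all features. It was tested on simulated data. Precision is limited by how many arrays there are, and a region's difference had a median SE of 0.093.

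Members and gene lists were chosen with earlier results of these data known. Named regions were the 10 with the smallest p in each direction, the 5 brightest, the 5 most variable in normoxia, and 5 each of the opposite-strand and near-gene pairs with the highest correlation. The Malat1 stretch, the promoter examples, Foxj1, Prom1 and Smcp were picked after their values were seen. Correlations across mice used deviations from group means. Positions (mm9) and strand were read from the files. Of the region probes, 118 have no position in the files. Alternatives covered the normalization, background, filter, probe rule, slide, array weights, replicate number and single arrays.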

Additional observations from a re-analysis of the deposited data

Results flagged for a closer look

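Within the 10 hypoxia mice, 6 of the 45 items searched held a value far from the rest of the group, beside a nominal 2.25 expected by chance. The 45 are not a count of single mouse values. The named regions were picked from these data and share arrays, so this is no test of an excess. For chr15:98842850-98853100_F, hypoxia mouse 9 had a log2 ratio of -0.11, and the other hypoxia mice lay between 0.14 and 0.43. For chr19:5801802-5802597_R, hypoxia mouse 7 had 2.08 against -0.04 to 0.79, and for chr7:108209996-108216032_R the same mouse had 1.15 against -0.10 to 0.51. It also had 0.08 against -0.38 to -0.15 for chr11:22681800-22707775_F. Hypoxia mouse 5 had 0.97 against -0.50 to 0.17 for chr11:19778600-19815950_R. These 4 values come from the arrays of slide 1, which had few spots above background. For chr14:115423660-115463160_R, hypoxia mouse 10 had -0.64 against -0.29 to 0.00.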

How the results depend on the processing

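No region passed an adjusted p of 0.05 in limma under any alternative, and the smallest adjusted p among regions was 0.072 (array weights). At an unadjusted p under 0.05, the main counts of 19 higher and 64 lower regions became 1 and 21 with median centring in place of loess, 6 and 21 in the deposited value table, 12 and 31 of 330 regions well above background on all arrays of a group, 45 and 134 of 4610 regions with no filter, and 26 and 139 with array weights. There were 14 and 47 among 729 regions well above background on 18 or more arrays, 10 and 54 without slide 1, and 21 and 23 with Cy5 alone. The median difference over regions was -0.178 under median centring and between -0.037 and -0.018 without single arrays. Regions less other features gave a median of 0.037 under median centring and 0.020 in the value table, against -0.034. Leaving out 1 array gave 12 (normoxia mouse 2 or 11) to 25 higher and 44 to 99 lower regions, the last without normoxia mouse 6. Scaling intensities between arrays (Aquantile) leaves ratios as they are and changed nothing.

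Of 351 values for the 20 ranked regions under 18 alternatives, 5 had the opposite sign, all under median centring: chr17:26911032-26912366_F (-0.02), chr11:35805295-35817263_F (-0.055), chr6:35201798-35217831_F (-0.067), chr7:128341797-128414692_R (-0.087) and chr12:21584725-21595050_R (-0.063). Replicate numbers did not pair the mice, as same-numbered mice had correlations of deviations from -0.47 to 0.25. The replicate block over replicates 1 to 10 gave 8 higher and 34 lower regions, against 12 and 42 for the same mice without it, a comparison added after seeing the data, as were the correlations without single arrays or slide 1. Dim probes limit most members: 57.0% lie in the lowest of 4 intensity bins.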
